A study of Rattus norvegicus with 15 samples.

Results

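The 10 genes described here encode ligands, antagonists and receptors of the myostatin, activin and TGF-beta pathways. They were taken by name from the 37991 genes of the deposited table. All 10 were among the 17201 genes that had enough counts to be tested. The ligands were Mstn, Gdf11, Inhba, Tgfb1, Tgfb2 and Tgfb3, the antagonists were Fst and Fstl3, and the receptors were Acvr2a and Acvr2b.

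The RNA came from the multifidus, a deep paraspinal muscle, of wild type male Sprague Dawley rats, and 15 libraries in 5 groups were sequenced. The age of the rats is given as 12 weeks, which the study's methods state for the division into groups and not for tissue collection. The control group (2 libraries) had no injury. The surgery group (2), the VitD group (3), the pMT group (4) and the pMT/VitD group (4) had all undergone spinal surgery, which per the study's methods was a hemilaminectomy with ligation of the left L5 spinal nerve. The surgery group received nothing afterwards, so injection itself is not separated from what was injected. Plasma-derived mitochondria (pMT), isolated from human blood plasma, were given by injection beside the spine on the left, at 25 µg in 100 µL per site and 50 µg per rat. Vitamin D (VitD), given as cholecalciferol, was injected at 150 µg per site, 300 µg per rat, and the pMT/VitD group received both. The study's methods place the pMT injection at day 14 and tissue collection at day 28 after surgery, and describe the control, surgery and pMT groups only. The day of the VitD injection is not given in the sources used here.

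Myostatin, the product of Mstn, is secreted by muscle fibres and limits muscle mass. Gdf11 is its closest relative, and Inhba encodes the subunit of activin A. These ligands bind the type II receptors encoded by Acvr2a and Acvr2b and signal through Smad2 and Smad3. Follistatin (Fst) and follistatin-like 3 (Fstl3) bind activins and myostatin and keep them from their receptors. The TGF-beta isoforms are secreted in a latent form, held in the extracellular matrix, released by proteases and integrins, and best known in injured muscle for driving matrix production by fibroblasts. They use their own receptors, Tgfbr1 and Tgfbr2, and the same Smads.

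The promoters of the TGF-beta isoforms are shown because these genes shared a direction in the main comparison of the operated groups. RefSeq sequences of the GRCr8 assembly were matched by gene symbol to 8 of the 10 genes. Mstn and Fst had no entry under their symbols. Each line gives the 250 bases before the annotated start on the strand of the gene, 5′ to 3′, with capitals for matches to the E-box CANNTG.
Tgfb1, chr1:90324062-90324311, plus strand: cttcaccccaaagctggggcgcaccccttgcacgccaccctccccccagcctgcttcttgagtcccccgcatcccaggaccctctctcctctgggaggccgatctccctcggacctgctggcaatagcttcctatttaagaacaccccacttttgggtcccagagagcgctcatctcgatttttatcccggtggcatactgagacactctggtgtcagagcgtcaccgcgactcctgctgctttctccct
Tgfb2, chr13:100792686-100792935, minus strand: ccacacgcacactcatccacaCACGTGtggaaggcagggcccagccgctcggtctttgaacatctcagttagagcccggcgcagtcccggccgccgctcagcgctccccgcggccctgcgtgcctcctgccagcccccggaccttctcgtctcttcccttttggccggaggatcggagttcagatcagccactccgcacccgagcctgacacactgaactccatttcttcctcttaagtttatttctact
Tgfb3, chr6:111456947-111457196, minus strand: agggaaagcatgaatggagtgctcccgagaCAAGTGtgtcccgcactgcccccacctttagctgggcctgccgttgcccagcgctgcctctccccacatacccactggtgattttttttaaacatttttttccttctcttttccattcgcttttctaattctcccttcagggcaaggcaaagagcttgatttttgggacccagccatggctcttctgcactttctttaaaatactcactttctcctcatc
The windows differed in base composition, with a GC content of 60.0% for Tgfb1, 61.6% for Tgfb2 and 48.8% for Tgfb3. An E-box was found 229 bases before the start of Tgfb2 and 220 bases before that of Tgfb3, and none in the Tgfb1 window. E-boxes stood in 65.5% of the 33469 rat promoter windows of this length. None of the windows of the 3 isoforms held the GC box GGGCGG, the Smad-binding element CAGAC (each searched on both strands) or the TATA box TATAAA (strand of the gene), which stood in 30.5%, 42.9% and 8.06% of all windows. These matches are descriptions of letters and no binding was measured.

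Total counts were between 52342134 and 73557878 per library, with a median of 64352162. Levels are given as CPM, counts relative to the library total scaled by TMM factors, and comparisons between genes use TPM, which also divides by gene length. The myofibre markers summed to 103263 CPM or more in every library, and none of the 10 was at 0. Replicate 4 of the pMT group and replicate 4 of the pMT/VitD group stood apart from their labels. Over 1604 abundant genes, the spread (median absolute deviation) of log2 ratios between pMT replicate 4 and the other pMT libraries was 0.33 to 0.58, against 0.14 to 0.27 to pMT/VitD replicates 1 to 3. For pMT/VitD replicate 4 it was 0.38 to 0.50 to its own group and 0.17 to 0.23 to pMT replicates 1 to 3. To the control libraries it was 0.16 to 0.19, so this library was as near to uninjured muscle as to the pMT group. Between both libraries numbered 4 it was 0.50. Replicate 1 of the VitD group was also distant, at 0.35 to 0.47 from the other VitD libraries. VitD replicate 2 was nearer to the surgery libraries, at 0.07 to 0.10, than to its own group, at 0.14 to 0.35. For VitD replicate 3 these were 0.13 to 0.16 and 0.14 to 0.47. Both libraries numbered 4 are labelled as given pMT, and an exchange of them was not fitted. Results are given below with and without these libraries.

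Per unit length, Tgfb1 was the most abundant of the 10 genes at a mean of 18.4 TPM over the 15 libraries, with a range of 10.6 to 36.9 TPM. Tgfb3 followed at 13.1 TPM, Tgfb2 at 10.4 TPM and Mstn at 9.04 TPM. The order of Tgfb2 and Mstn differed between groups, with the mean of Mstn above that of Tgfb2 in the control (9.72 and 6.97 TPM), pMT (10.7 and 9.32) and pMT/VitD (8.21 and 7.43) groups and below it in the others. The receptor Acvr2a averaged 5.09 TPM and Acvr2b 1.25 TPM, and the antagonist Fst averaged 4.44 TPM. Gdf11 averaged 1.37 TPM, Fstl3 0.729 TPM and Inhba 0.206 TPM. Fstl3 rested on only 12 to 46 counts per library and Inhba on 51 to 147, so both were measured with less precision than Tgfb2, which had 1284 to 5609. Mstn varied most, with its highest library 4.01-fold above its lowest in CPM, and Tgfb3 least, at 1.51-fold.

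**Figure D1:**
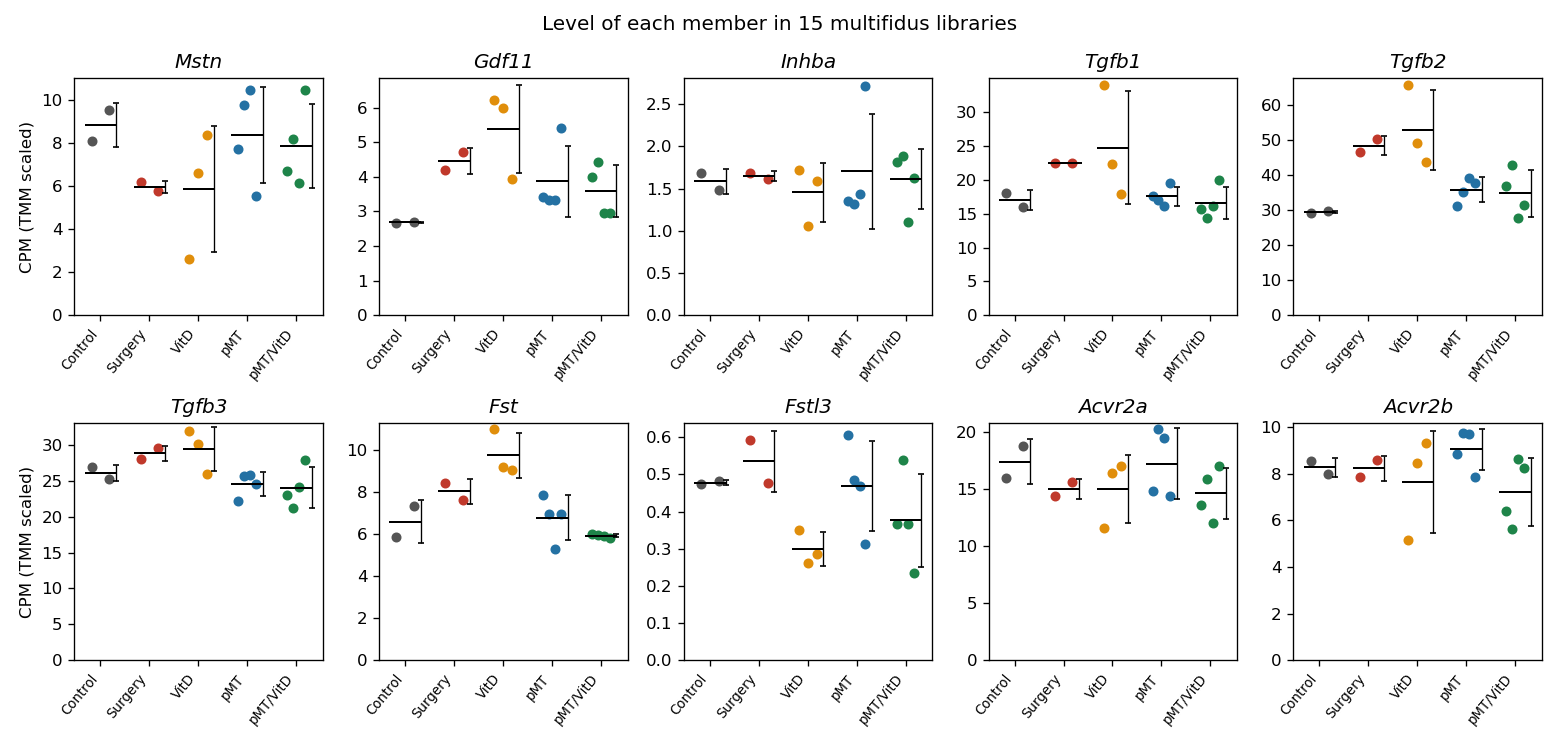
Level of each of the 10 genes in CPM (vertical axes from 0) in the 15 libraries by group, with points for libraries, horizontal bars for group means and vertical bars for ± SD. Tgfb2 was between 43.8 and 65.6 CPM in the surgery and VitD groups and between 27.6 and 42.9 CPM in the pMT and pMT/VitD groups.

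The TGF-beta isoforms were lower in the rats given pMT than in the operated rats without it. This comparison gave the most calls among the 10 genes, and it was tested as the mean of the pMT and pMT/VitD groups against the mean of the surgery and VitD groups, 8 libraries against 5. Of the 10 genes, Tgfb1, Tgfb2, Tgfb3 and Fst were called lower and none higher, at an adjusted p under 0.05 by edgeR's quasi-likelihood test with Benjamini-Hochberg adjustment over all tested genes. In the same comparison 23.3% of all tested genes were called, 13.3% lower. The median log2 fold change was −0.12 over the 10 genes and 0.01 over all genes.

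Tgfb2 was at 29.2 and 29.6 CPM in the control group, 46.4 and 50.3 in the surgery group, and 65.6, 49.1 and 43.8 in the VitD group. With pMT it was 31.1, 35.2, 39.0 and 37.8 CPM, and with pMT and VitD 36.8, 42.9, 27.6 and 31.5. Every one of the 8 libraries with pMT lay below every operated library without it, a separation that 7.15% of tested genes showed in this direction. The means were 35.2 and 50.6 CPM, a log2 fold change of −0.52 (SE 0.115, 95% interval −0.77 to −0.27, adjusted p = 0.00548, edgeR). Among the 10 genes Tgfb2 alone separated these libraries without overlap.

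Tgfb1, the isoform most studied in muscle fibrosis, was at 18.1 and 16.0 CPM in the control group and at 22.5 CPM in both surgery libraries. The VitD libraries spread widely, at 34.0, 22.4 and 17.9 CPM. The pMT libraries were at 17.6, 17.0, 16.2 and 19.5 CPM and the pMT/VitD libraries at 15.7, 14.4, 16.2 and 20. The pMT-treated libraries overlapped the VitD group only through its lowest library, and all of them lay below both surgery libraries. Such a gap to the surgery group was shown by 17.2% of tested genes for the pMT group and by 20.2% for the pMT/VitD group. The log2 fold change with pMT was −0.47 (SE 0.130, 95% interval −0.75 to −0.19, adjusted p = 0.0195, edgeR), from 23.6 to 17.1 CPM.

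Tgfb3 had the smallest estimate. It was at 26.9 and 25.3 CPM in the control group, 28.1 and 29.6 in the surgery group and 32, 30.1 and 26.0 in the VitD group. With pMT it was at 22.2, 25.6, 25.8 and 24.5 CPM, and with pMT and VitD at 23.0, 21.2, 24.1 and 27.9. The ranges with and without pMT overlapped at pMT/VitD replicate 4. The log2 fold change was −0.26 (SE 0.0786, 95% interval −0.43 to −0.09, adjusted p = 0.0282, edgeR).

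The isoforms were also compared as shares of their summed TPM within each library, which removes differences in total. The sum itself was 32.2 to 34.4 TPM in the control group, 53.4 to 54.8 in the surgery group, 46.0 to 75.0 in the VitD group, 29.6 to 45.3 in the pMT group and 26.7 to 41.5 in the pMT/VitD group. Tgfb2 made up 19.9% to 22.0% of the sum in the control group, 25.4% to 26.5% in the surgery group and 25.7% to 27.4% in the VitD group. Its share with pMT was 22.5% to 26.5%, and with pMT and VitD 19.9% to 31.5%, overlapping all the other groups. Tgfb3 made up 35.3% to 35.6% in the control group and 29.9% to 30.0% in the surgery group, and Tgfb1 between 38.8% and 49.2% in every library. The mix of isoforms thus held more Tgfb2 and less Tgfb3 in the surgery libraries than in the control libraries, with 2 libraries on each side and no test.

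Follistatin, the antagonist, was lower with pMT alongside the TGF-beta isoforms. Fst was at 5.87 and 7.33 CPM in the control group, 8.46 and 7.62 in the surgery group and 11.0, 9.23 and 9.05 in the VitD group. In the pMT group it was at 7.89, 6.97, 5.31 and 6.97 CPM, so that its highest library lay above the lower surgery library. The pMT/VitD libraries were within 5.82 to 6.01 CPM, the narrowest spread of any group for this gene. They lay below both surgery libraries, a gap that 20.2% of tested genes showed for this group. The log2 fold change with pMT was −0.48 (SE 0.0993, 95% interval −0.69 to −0.27, adjusted p = 0.00352, edgeR), from 8.89 to 6.36 CPM. Fst and Tgfb2 were also the genes called in the test of any difference among the 5 groups (adjusted p = 0.0160 and 0.0201, edgeR), in which 11.8% of all tested genes were called.

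Myostatin did not pass the test in any comparison with all groups in the fit, and its estimate was wide. When only the surgery and control libraries were fitted, Mstn was called lower after surgery (log2 fold change −0.54, adjusted p = 0.00601, edgeR). That fit called 5289 genes in all, against 266 with all groups in the fit, so the call is not particular to Mstn. Mstn was at 8.13 and 9.57 CPM in the control group, 6.18 and 5.78 in the surgery group and 2.63, 6.64 and 8.37 in the VitD group. The pMT libraries were at 7.72, 9.80, 10.5 and 5.55 CPM and the pMT/VitD libraries at 6.70, 8.19, 6.15 and 10.5. Its order of group means ran from control (8.85 ± 1.02 CPM, SD, n = 2) to pMT (8.40 ± 2.24, n = 4), pMT/VitD (7.90 ± 1.97, n = 4), surgery (5.98 ± 0.279, n = 2) and VitD (5.88 ± 2.94, n = 3), and each neighbour in that order overlapped the next. The log2 fold change with pMT was 0.46 (95% interval −0.05 to 0.97, adjusted p = 0.182, edgeR), and it was 0.28 without VitD replicate 1. The interval therefore holds both no difference and an almost doubled level.

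The ratio of Fst to Mstn in TPM set the antagonist beside its ligand within each library. It was 0.357 in each control library, and 0.683 and 0.698 after surgery alone. With VitD it ran from 0.515 to 2.05, in the pMT group from 0.258 to 0.628, and in the pMT/VitD group from 0.280 to 0.50. All 8 libraries with pMT were below both surgery libraries in this ratio, and they overlapped the VitD group. It is a ratio of transcripts and was not tested.

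Gdf11 was lowest in uninjured muscle on the CPM scale. It was at 2.67 and 2.70 CPM in the control group, below each of the 13 operated libraries, a separation that 0.860% of tested genes showed and that no other of the 10 did. In TPM, which divides by the length-weighted total of the library, the control libraries were at 0.823 and 0.836 and pMT/VitD replicate 3 was below them at 0.808. In CPM the surgery libraries were at 4.19 and 4.72 CPM, the VitD libraries at 6.22, 6 and 3.93, the pMT libraries at 3.42, 3.34, 3.32 and 5.40, and the pMT/VitD libraries at 4, 4.43, 2.95 and 2.96. With pMT against without it, the log2 fold change was −0.40 (95% interval −0.74 to −0.05, adjusted p = 0.0901, edgeR). Without both libraries numbered 4 it was −0.47 and passed the test (adjusted p = 0.0236).

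The activin subunit gene, Fstl3 and the receptors did not pass the test in any comparison or alternative. Inhba had group means of 1.46 to 1.70 CPM and a log2 fold change with pMT of 0.09 (95% interval −0.35 to 0.53). Fstl3 had group means from 0.300 CPM in the VitD group to 0.536 CPM in the surgery group, and a log2 fold change with pMT of 0.07 (95% interval −0.44 to 0.57). For the receptors the log2 fold changes with pMT were 0.08 for Acvr2a (95% interval −0.19 to 0.35) and 0.03 for Acvr2b (95% interval −0.28 to 0.33). The receptor intervals exclude a change of the size seen for Tgfb2, and those of Inhba and Fstl3 are wider. The lowest value of both receptors was in VitD replicate 1, at 11.6 CPM for Acvr2a and 5.16 CPM for Acvr2b, which was also the library with the lowest Mstn and the highest Tgfb1, Tgfb2, Tgfb3 and Fst.

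**Figure D2:**
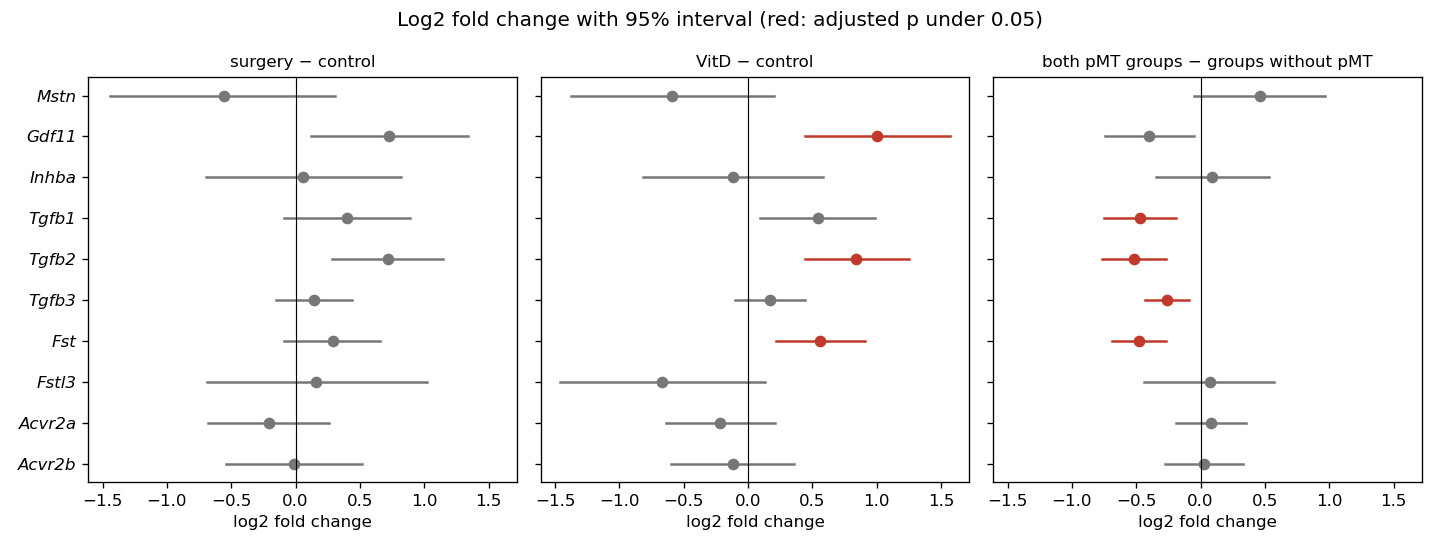
Log2 fold change (horizontal axes) with its 95% interval for each of the 10 genes in 3 comparisons, in red where the adjusted p is under 0.05. The intervals of Tgfb1, Tgfb2, Tgfb3 and Fst lie below 0 in the comparison of the pMT groups with the operated groups without pMT, and those of Gdf11, Tgfb2 and Fst lie above 0 for VitD against control.

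The calls for Tgfb2 and Fst held in all 24 alternative settings and left-out libraries tried for this comparison, with log2 fold changes of −0.77 to −0.43 and −0.73 to −0.43. The highest adjusted p was 0.0369 for Tgfb2 and 0.0297 for Fst. Tgfb1 kept its call in 22 of the 24 and lost it when either surgery library was left out, at a highest adjusted p of 0.0727. Tgfb3 kept it in 16 and lost it in 8, among them the loss of either surgery library, of VitD replicate 1 or 2, of pMT replicate 1 and of pMT/VitD replicate 1 or 2, at a highest adjusted p of 0.125. Without both libraries numbered 4, the log2 fold changes were −0.56 for Tgfb1, −0.52 for Tgfb2, −0.31 for Tgfb3 and −0.50 for Fst, and all 4 calls held. Without VitD replicate 1 they were −0.32, −0.43, −0.23 and −0.44, and the call of Tgfb3 was lost.

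**Figure D3:**
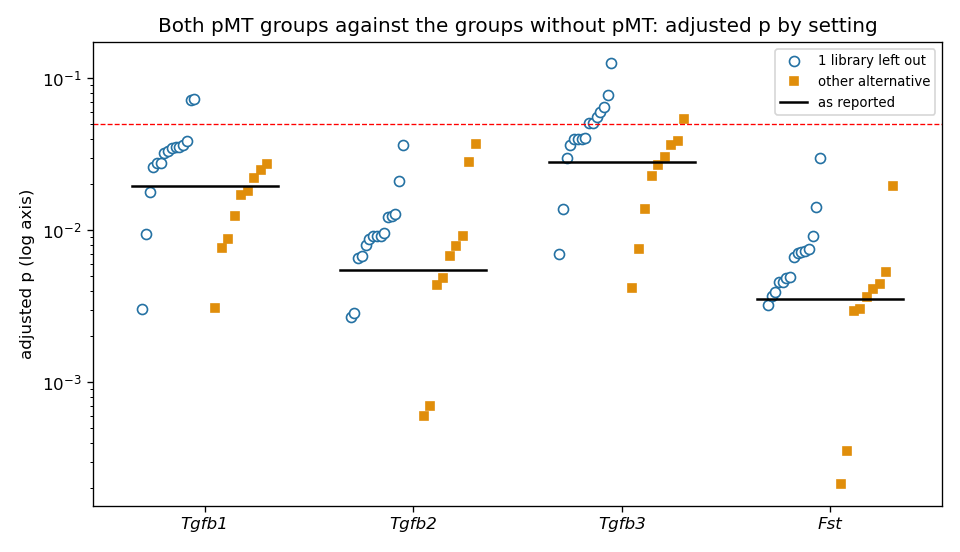
Adjusted p (log axis) of Tgfb1, Tgfb2, Tgfb3 and Fst in the comparison of both pMT groups with the surgery and VitD groups, with circles for fits that leave out 1 library, squares for the other alternatives, a bar for the value reported and a dashed line at 0.05. All points of Tgfb2 and Fst lie under the line, while 2 of Tgfb1 and 8 of Tgfb3 lie above it.

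Surgery alone was compared with uninjured muscle to describe the injury. None of the 10 genes passed the test, against 1.55% of all tested genes (266 genes). At an unadjusted p under 0.05 there were 2 of the 10, beside 17.0% of all genes. DESeq2 called 1001 genes in all, of the 10 Tgfb2 alone (adjusted p = 0.0265). Tgfb2 had a log2 fold change of 0.72 (95% interval 0.28 to 1.15, adjusted p = 0.0896, edgeR) and Gdf11 of 0.73 (95% interval 0.12 to 1.34, adjusted p = 0.204). Mstn had a log2 fold change of −0.56 (95% interval −1.44 to 0.31, adjusted p = 0.519). In both surgery libraries Gdf11, Tgfb1, Tgfb2, Tgfb3 and Fst lay above both control libraries, where 31.7% of tested genes did so. Mstn and Acvr2a lay below them, as did 34.4% of tested genes, so with 2 libraries a side such separation was common. In TPM Acvr2a overlapped between these groups, at 4.69 to 5.45 in the control and 5.20 to 5.66 in the surgery group. Without VitD replicate 1 in the fit, whose group is not in this comparison but adds to the estimate of spread, Tgfb2 passed (adjusted p = 0.0294).

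With vitamin D after surgery, 3 of the 10 genes were higher than in uninjured muscle, and 8.67% of all tested genes were called (5.48% higher). Gdf11 rose with a log2 fold change of 1.0 (SE 0.266, 95% interval 0.44 to 1.57, adjusted p = 0.0337, edgeR). Tgfb2 rose by 0.84 (SE 0.190, 95% interval 0.44 to 1.25, adjusted p = 0.0176) and Fst by 0.56 (SE 0.161, 95% interval 0.22 to 0.91, adjusted p = 0.0445). These calls rested on few libraries. All 3 were lost without either control library, without VitD replicate 1, or when only the control and VitD libraries were fitted. In these 4 fits the log2 fold changes stayed at 0.89 to 1.03 for Gdf11, 0.66 to 0.87 for Tgfb2 and 0.41 to 0.73 for Fst. Gdf11 and Fst also lost their calls without either surgery library or VitD replicate 2, leaving Tgfb2 alone. Over 24 alternatives and left-out libraries Tgfb2 kept its call in 20, Gdf11 in 17 and Fst in 12.

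Between vitamin D and surgery alone no difference passed the test. No gene of the table was called between these groups by edgeR (139 at an unadjusted p under 0.05, 1 called by DESeq2). Among the 10 genes Fstl3 alone had an unadjusted p under 0.05, at 0.300 against 0.536 CPM (log2 fold change −0.83, 95% interval −1.61 to −0.05, adjusted p = 1.0). For Tgfb2 the log2 fold change was 0.13 (95% interval −0.27 to 0.52) and for Mstn −0.03 (95% interval −0.83 to 0.77), so moderate differences in either direction remain possible.

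Each pMT group was also set against surgery on its own. In the pMT group none of the 10 genes was called by edgeR or DESeq2, and 1 had an unadjusted p under 0.05, as did 14.3% of all tested genes. Over all genes 1.94% were called, and DESeq2 called 747 genes. Tgfb2 had a log2 fold change of −0.43 (95% interval −0.80 to −0.07, adjusted p = 0.253, edgeR). In the pMT/VitD group none was called by either tool, and 4 had an unadjusted p under 0.05, as did 24.8% of all tested genes. Over all genes 7.44% were called, and DESeq2 called 2249 genes. Fst had a log2 fold change of −0.44 (adjusted p = 0.0865), Tgfb2 of −0.48 (adjusted p = 0.104), Tgfb1 of −0.44 (adjusted p = 0.179) and Tgfb3 of −0.26 (adjusted p = 0.187). Tgfb3 passed without both libraries numbered 4 (adjusted p = 0.0402) and Fst without pMT replicate 3 (adjusted p = 0.0492). All of these comparisons use the same 2 surgery libraries and are not independent of each other.

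Against uninjured muscle, no difference of the pMT groups passed the test. No gene of the table was called by edgeR between the pMT and control groups (528 at an unadjusted p under 0.05) or between the pMT/VitD and control groups (496), and none of the 10 by DESeq2. Tgfb2 had a log2 fold change of 0.28 (95% interval −0.10 to 0.66) for pMT against control and of 0.24 (95% interval −0.14 to 0.62) for pMT/VitD against control. For Fst these were 0.04 (95% interval −0.29 to 0.36) and −0.15 (95% interval −0.48 to 0.17), and for Mstn −0.07 (95% interval −0.83 to 0.68) and −0.16 (95% interval −0.92 to 0.59). The upper bounds for Tgfb2 lay below the VitD group's estimate of 0.84, and the intervals for Mstn held the estimates of every other group against control.

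Adding vitamin D to pMT gave no call either. Between the pMT/VitD and pMT groups edgeR called no gene of the table (1737 at an unadjusted p under 0.05). DESeq2 called 89 genes and edgeR without both libraries numbered 4 called 3136, with none of the 10 among either. The log2 fold change was −0.19 for Fst (95% interval −0.46 to 0.07) and −0.04 for Tgfb2 (95% interval −0.35 to 0.26). The interaction of pMT and VitD among operated rats, which asks whether the difference with pMT changes with vitamin D, was called for no gene (888 at an unadjusted p under 0.05). Fst had the lowest p of the 10, with an interaction of −0.47 on the log2 scale (95% interval −0.90 to −0.04, unadjusted p = 0.0347 and adjusted p = 0.899, edgeR).

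The wider pathway was described with a list of 82 other ligands, binding proteins, receptors, antagonists, Smads, processing factors and target genes, of which 76 were tested. With pMT against without it, 25 were lower and 3 higher, 36.8% of those tested, beside 23.3% of all genes, and their median log2 fold change was −0.20 beside 0.01. In surgery against control 6 were higher and none lower (7.89%, beside 1.55% of all genes), and in VitD against control 11 were higher and 1 lower (15.8%, beside 8.67%). In pMT against surgery 1 was higher and 3 lower, beside 1.94% of all genes called. In pMT/VitD against surgery 1 was higher and 10 lower, beside 7.44% of all genes called. No listed gene was called in the comparisons in which edgeR called no gene of the table.

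Of 15 tested genes listed as targets of the wider pathway, several of them matrix genes, 6 were called lower with pMT and none higher. Over all genes 13.3% were called lower. Ltbp2 is counted among the listed targets and among the latent binding proteins. Postn, which encodes the matrix protein periostin, was at 59.6 and 67.3 CPM without injury and at 278 and 294 after surgery alone. It spanned 196 to 613 CPM in the VitD group, 55.2 to 108 in the pMT group and 44.3 to 80.7 in the pMT/VitD group. Its log2 fold change with pMT was −2.26 (SE 0.237, adjusted p = 3.38e-05, edgeR), and with surgery alone against control 2.17 (SE 0.435, adjusted p = 0.0281). Fn1 (fibronectin) fell by 1.04 on the log2 scale with pMT (adjusted p = 9.81e-05), and Tgfbi, a matrix protein named for its induction by TGF-beta, fell by 0.84 (adjusted p = 5.21e-05). Ctgf, a matricellular protein also called Ccn2, fell by 0.80 (adjusted p = 0.00403). The ubiquitin ligases Fbxo32 and Trim63, named for their known part in muscle atrophy, were among the 9 not called.

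Some genes listed as latent binding proteins or as processing factors were lower with pMT. Of the 7 latent binding proteins 4 were lower, beside the same 13.3% of all genes, among them Ltbp1 (log2 fold change −0.76, SE 0.120, adjusted p = 6.47e-04, edgeR), and of the 9 tested processing genes 6 were lower. These included the protease Mmp14 (−0.92, adjusted p = 0.00125), the integrin subunit Itgb8 (−1.07, adjusted p = 0.00311), the proprotein convertase Pcsk5 (−0.55, adjusted p = 0.00197) and the astacin protease Tll1 (−0.63, adjusted p = 0.00860). Of 10 receptors 2 were lower, and of 9 Smads 1, and no gene of either role was called among the 5 groups. A difference between roles was not tested.

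Among the other ligands 4 were lower and 1 higher of 11 tested, beside 23.3% of all genes called and 13.3% called lower. Inhbb, which encodes the subunit of activin B, was the ligand that rose, at 3.71 and 3.73 CPM without injury and 2.58 and 2.92 after surgery alone. It was at 1.83 to 2.85 CPM in the VitD group, 4.10 to 5.18 in the pMT group and 3.38 to 4.86 in the pMT/VitD group. All libraries with pMT were above all operated libraries without it, as for 4.24% of tested genes, and the log2 fold change was 0.88 (SE 0.131, adjusted p = 4.17e-04, edgeR). Bmp1, listed here by its name but a protease that processes collagen and latent myostatin, fell by 0.66 on the log2 scale (adjusted p = 4.53e-04). Gdf5 was at 0.429 to 0.725 CPM in the surgery and VitD libraries and between 0 and 0.117 CPM in all others, too few counts for a fold change to be read.

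Among the other antagonists 3 were lower and 2 higher of 16 tested, beside 23.3% of all genes called and 13.3% called lower. Whether antagonists were called more often than other genes was not tested. Fstl1, a follistatin-like protein secreted by stromal cells, fell by 0.88 on the log2 scale (adjusted p = 1.33e-04, edgeR) and Igsf1 by 1.05 (adjusted p = 0.00666). The inhibitory Smads rose, Smad6 by 0.45 (adjusted p = 0.0260) and Smad7 by 0.38 (adjusted p = 0.0226). They are named after their values were seen, since neither was called among the 5 groups.

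**Figure D4:**
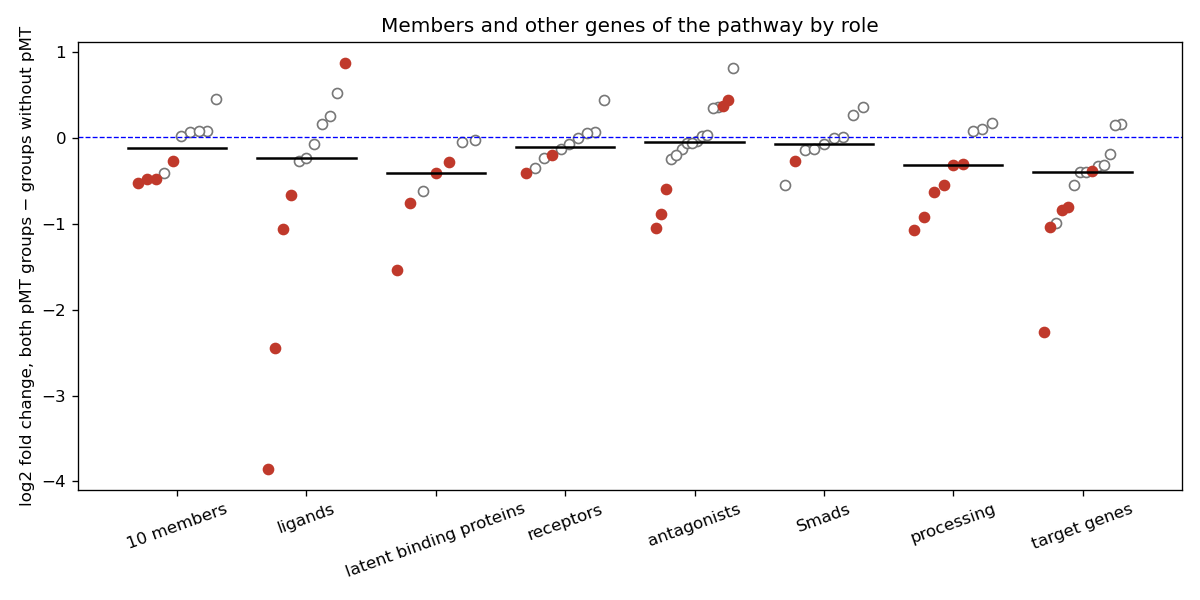
Log2 fold change (vertical axis) of both pMT groups against the surgery and VitD groups for the 10 genes and for other tested genes of the pathway by role, filled where the adjusted p is under 0.05, with a bar at each role's median and a dashed line at the median of all genes. Filled points lie mostly below 0, with Postn lowest among the target genes at −2.26 and Inhbb the filled ligand above 0, at 0.88.

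Markers of other cell types moved with the same groups. Summed over 8 markers, macrophage genes were at 253 to 262 CPM in the control group, 498 to 500 in the surgery group, 428 to 674 in the VitD group, 210 to 282 in the pMT group and 196 to 282 in the pMT/VitD group. All 8 were called lower with pMT, beside 23.3% of all tested genes called and 13.3% called lower. Fibroblast genes, also 8, summed to 2820 to 2835 CPM in the control group, 4895 to 4923 in the surgery group, 4109 to 7705 in the VitD group, 2805 to 3253 in the pMT group and 2114 to 3032 in the pMT/VitD group, and 5 were called lower (Lum, Dpt, Col1a1, Col1a2 and Col3a1). Collagens set much of this sum, and the 5 other markers together were at 976 to 1066, 1035 to 1071, 1104 to 1290, 930 to 1175 and 797 to 979 CPM in the same order. Lymphocyte genes summed to 35.1 to 37.2, 64.0 to 64.5, 59.3 to 74.7, 28.7 to 37.6 and 20.2 to 40.4 CPM in the same order, with 3 of 6 tested called lower. Nearly all of that sum was Cd4, which rat macrophages also express, with means of 35.4 CPM in the control and 61.8 CPM in the surgery group. Of 10 myofibre genes 1 was called higher, beside the same 23.3% of all genes called in either direction. Whether the markers of a cell type were called more often than other genes was not tested. In bulk muscle, fewer cells of a type and less RNA per cell cannot be told apart, and the part of cell composition in the levels of Tgfb1, Tgfb2, Tgfb3, Fst and the target genes was not tested.

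**Figure D5:**
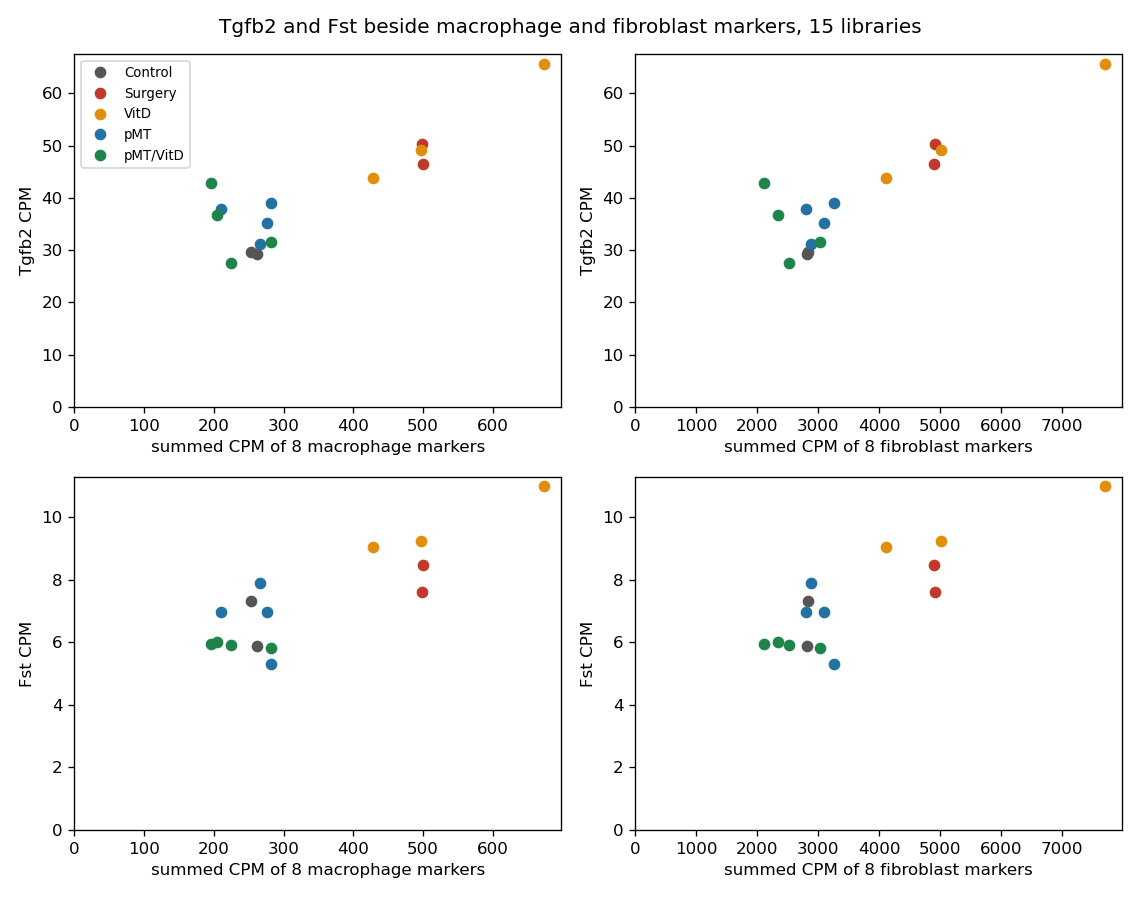
Tgfb2 (top) and Fst (bottom) in CPM against the summed CPM of 8 macrophage markers (left) and 8 fibroblast markers (right), 1 point per library coloured by group. The surgery and VitD libraries lie at the upper right, with macrophage sums of 428 to 674 CPM, and the other libraries have macrophage sums of 196 to 282 CPM.

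The levels of the 10 genes also moved with each other across libraries. These correlations describe log2 CPM over 15 libraries that share group structure and scaling. Gdf11 and Tgfb2 had a Pearson r of 0.87, Tgfb1 and Tgfb3 of 0.85, and Mstn and Acvr2a of 0.82. Mstn ran opposite to Tgfb1 (r = −0.77) and to Gdf11 (r = −0.71).

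Likeness of pattern was taken over 11391 other genes whose log2 CPM averaged 1 or more. Those closest to Mstn in pattern were Prkaa2, a catalytic subunit of AMP-activated protein kinase (r = 0.98), Nkiras1 and Tor1aip1 (both 0.97). Tgfb1 was closest to Cap1, an actin-binding protein, Arhgdia and Lmna, which encodes lamin A (each 0.97). Tgfb2 was closest to Sorbs2 (0.97), Gadd45a, a stress-induced gene (0.96), and Tnnt2, the cardiac troponin T that is also expressed in immature skeletal muscle (0.96). Fst was closest to Marcks (0.96), Laptm4b and Cdk17 (both 0.94).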

How the data were processed

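Paired-end reads of total RNA from multifidus muscle made up 15 libraries. Groups came from the sample labels. Per the submitters' processing notes and the study's methods, reads were trimmed (Trimmomatic 0.38), aligned to rn6 (HISAT2 2.1.0), sorted (SAMtools 1.9) and quantified against RefSeq genes (StringTie 2.1.3b). The deposited counts are raw read counts per gene, without normalization. The deposited TPM values are scaled by the authors for gene length and library total, and served for comparisons between genes. FPKM columns were not used. Handling of strand is not given in the sources used here. In GRCr8, Fst, Acvr2a and Tgfb2 each overlap another gene (a long noncoding RNA, Orc4 and a small nucleolar RNA), so their counts may hold reads of it.

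Counts were analysed in R 4.3.3 with edgeR 4.0.16 (TMM factors, filterByExpr, glmQLFit with robust estimation). All 15 libraries entered each fit with group as the factor, and p-values were adjusted by the Benjamini-Hochberg method over 17201 genes. Nothing in the labels says that libraries of a group came from separate rats, so p-values measure the spread between libraries. Log2 fold changes have 95% intervals from the fitted t distribution. Correlations used log2 CPM with a prior count of 2. Pairs of libraries within a group differed by more than counting noise, so none was counted as a duplicate. The chi-square per degree of freedom was 4.66 for the surgery pair and 21.8 or more for every other pair. The surgery libraries were also the closest pair in the spread of log2 ratios over abundant genes, at 0.05. This check cannot tell separate rats from repeat preparations of the same tissue, and every comparison with surgery rests on that pair. Alternatives tried were scaling by RLE factors or library size, DESeq2 1.42.0, other filters on low counts, a fit of only the groups compared, removal of a trend of level on gene length, a replicate block, edgeR's exactTest with the study's fold change of 2 (pMT against surgery), and leaving out libraries.

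The named genes were the 10 members, at most 4 genes of each pathway role called among the 5 groups, and for Mstn, Tgfb1 and members called among the 5 groups the 3 genes of most similar pattern. The members and lists were chosen with earlier results of these data known. The promoter motifs were chosen after the tests.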

Additional observations from a re-analysis of the deposited data

Results flagged for a closer look

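In groups of 4 libraries, the highest and lowest values were checked for a gap to the others that is large for the group's range (Dixon's test at the 95% level). Over 20 such groups, 2 values stood out, where chance gives about 1 in 20. Both were in pMT replicate 4. Gdf11 was at 5.40 CPM there and at 3.32 to 3.42 CPM in the other pMT libraries. Inhba, the activin A subunit gene, was at 2.72 CPM there and at 1.32 to 1.43 CPM in the other pMT libraries, and this was the highest Inhba value of the 15 libraries. This is the library whose overall profile was nearer to pMT/VitD replicates 1 to 3 than to its own group. The pMT/VitD libraries had Gdf11 at 2.95 to 4.43 CPM and Inhba at 1.10 to 1.89 CPM, so neither value of pMT replicate 4 lay within them. Neither stood out as far in TPM, where pMT replicate 4 had Gdf11 at 1.36 and Inhba at 0.262, beside 1.2 to 1.35 and 0.178 to 0.244 in the other pMT libraries.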

How the results depend on the processing

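In the comparison of both pMT groups with the surgery and VitD groups, 3 to 5 of the 10 genes were called under the alternatives other than leaving out 1 library, and 2 to 5 with 1 library left out. The 2 were Tgfb2 and Fst, without Surgery replicate 1 or 2. For VitD against control, 3 became 0 when only those groups were fitted, and 0 to 4 with 1 library left out. For surgery against control, 0 became 2 with library size scaling, 4 with only those groups fitted (Mstn lower, and Gdf11, Tgfb1 and Tgfb2 higher) and 1 with DESeq2, and 0 to 1 with 1 library left out. For pMT/VitD against surgery, 0 became 4 with library size scaling and 1 without both libraries numbered 4, and 0 to 1 with 1 library left out. For any difference among the 5 groups, 2 became 5 with library size scaling, 1 with the trend on gene length removed, 5 without both libraries numbered 4 and 4 with DESeq2, and 1 to 4 with 1 library left out. It was Fst that lost its call without VitD replicate 1, and Tgfb2 without either control library or Surgery replicate 2. The other comparisons gave 0 of the 10 throughout, exactTest included, and no fold change of a called gene turned its sign. In several of these settings, though not in all, the genes called in all moved the same way. For surgery against control 266 became 997 with library size scaling, 5289 with only those groups fitted and 1001 with DESeq2. For pMT/VitD against surgery 1279 became 3250 with library size scaling and 3462 without both libraries numbered 4. For VitD against control 1492 became 96 when only those groups were fitted. The cause of these changes was not tested.

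Over all genes the counts moved more. Those called in surgery against control numbered 266 and ran from 106 to 5289 over the alternatives and from 8 to 1022 with 1 library left out. For VitD against control they were 1492, 96 to 2795 and 13 to 2396. For pMT against surgery they were 334, 78 to 747 and 27 to 740, and for pMT/VitD against surgery 1279, 350 to 3462 and 122 to 2199. For both pMT groups they were 4004, 2415 to 5473 and 2007 to 4633, and among the 5 groups 2035, 1080 to 5125 and 1133 to 2754. Between pMT/VitD and pMT, 0 became 3136 without both libraries numbered 4, and the interaction went from 0 to 325.

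Scaling by library size alone moved the median of all genes by over 0.1, to −0.23 for both pMT groups against the others, 0.25 for surgery and 0.27 for VitD against control, −0.12 for pMT and −0.32 for pMT/VitD against surgery. The share of calls that were higher went from 43.0% to 8.37%, 80.8% to 97.2%, 63.1% to 95.2%, 20.4% to 6.82% and 32.3% to 3.02%. Tgfb1, Tgfb2, Tgfb3 and Fst were called lower with pMT under both scalings, while the fold changes of Inhba, Fstl3, Acvr2a and Acvr2b, never called, turned negative.

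Deviations of libraries with the same replicate number had correlations of −0.92 to 0.44 (median 0.03, 8 of 24 above 0.1). For different numbers they were −0.84 to 0.89 (median −0.02, 17 of 64 above 0.1). With so few libraries per group these values are not independent, so the check cannot decide whether the numbers pair libraries. With a replicate block, Tgfb3 lost its call for both pMT groups (log2 fold change −0.30, adjusted p = 0.0538, edgeR), 1 of the 10 genes, Fst, was called among the 5 groups in place of 2, and the genes called in all were 2415 for both pMT groups, 106 for surgery against control, 78 for pMT and 350 for pMT/VitD against surgery, and 1080 among the 5 groups. Depth limits Fstl3 and Inhba most.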

Other observations

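Markers of further cell types were summed by group. Their calls with pMT stand beside 23.3% of all tested genes called and 13.3% called lower in that comparison. A difference from that share was not tested. Satellite cell genes were at 35.1 to 42.7 CPM over all libraries, with 2 of 4 lower and 1 higher with pMT. Of 5 genes each, endothelial markers had 1 higher and 1 lower, smooth muscle and pericyte markers 2 lower, Schwann cell markers 1 lower and adipocyte markers none called by edgeR. Platelet and erythrocyte genes summed to 380 to 396 CPM in the control group, 260 to 261 in the surgery group, 208 to 394 in the VitD group, 380 to 707 in the pMT group and 309 to 815 in the pMT/VitD group, with 3 of 5 tested higher and 1 lower with pMT.

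The trend of a library's levels on gene length also differed between libraries. The rank correlation across genes was 0.05 to 0.13 in the control group, 0.05 to 0.10 in the surgery group, −0.03 to 0.29 in the VitD group, −0.32 to 0.45 in the pMT group and −0.39 to 0.15 in the pMT/VitD group. With this trend removed, Tgfb1, Tgfb2, Tgfb3 and Fst were called lower with pMT, at log2 fold changes of −0.48, −0.45, −0.22 and −0.46.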
